A study of Neurospora crassa with 24 samples.

Results

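The genes described here are those of the filamentous fungus *Neurospora crassa* whose mRNA accumulated after a short exposure to light in vegetative mycelia of both strains, wild type and Δ*ve-1*. VE-1 is a protein of the velvet family of fungal regulators of development, and the mutant carries a deletion of its gene. Of 9758 genes in the count table, 86 had a mean of at least 10 counts scaled to library total (CPM, counts per 1e6) in illuminated wild-type mycelia and a light to dark ratio of at least 4 in each strain, with 0.2 CPM added to both sides of the ratio. After 10 well-known light genes (*al-1*, *al-2*, *al-3*, *cao-2*, *con-6*, *con-10*, *phr*, *mus-18*, *bli-4* and NCU08770) were left out, 76 genes remained. The question asked of them was which ones conidiation in the dark also induced.

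The RNA came from 24 libraries in 10 groups. Vegetative mycelia named V grew for 48 h at 22°C submerged on plates, either kept dark or given light during the final 30 min, and both strains had 2 libraries per condition. Submerged vegetative mycelia named S grew for 24 h with shaking in the dark, with 4 libraries per strain. Aerial tissue that forms conidia, named A15, was collected 15 h after mycelia were placed on solid medium in the dark, or in the dark with light for the last 30 min, with 2 libraries per strain and condition. The labels and the study's methods give different temperatures for S and A15. V served to choose the genes and entered none of the main tests. The main tests of development and of light in aerial tissue thus rest on libraries that had no part in the choice. Values from V are given as a description only. V also entered the scaling of levels and an alternative fit over all 24 libraries. S and A15 differed in culture form and age as well as in development, which cannot be told apart. In tissue of several cell types, fewer cells of a type and less RNA per cell cannot be told apart either. Nothing in the labels says that the libraries of a group came from separate cultures, so the p-values measure the spread between libraries.

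*N. crassa* perceives blue light through WC-1, a photoreceptor and transcription factor that acts with WC-2 in the white collar complex. The complex activates genes for carotenoid synthesis, DNA repair, the circadian clock and conidiation within minutes. VVD, a second blue-light photoreceptor, then damps the response, which is called photoadaptation. Conidiation is the formation of asexual spores on aerial hyphae that grow out of the mycelium at an air surface. It proceeds in complete darkness and is promoted by light. FL, a zinc cluster transcription factor, is its main regulator, and several genes named *con* were first isolated from conidiating cultures.

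The 76 genes were chosen by their CPM and light to dark ratios in V, which are given as a description. In illuminated V of the wild type their mean was 10.6 to 2026 CPM, with a median of 97.5 CPM. The light to dark ratio ran from 4.01 to 255 in the wild type, with a median of 7.55, and from 4.31 to 279 in the mutant, with a median of 7.49. *vvd* (NCU03967) had the highest ratio in both strains. Just inside the ratio threshold stood NCU01810, *wc-1* (NCU02356) and *cat-1* (NCU08791), with lower ratios of 4.01, 4.08 and 4.11, and just outside it stood NCU02882, NCU02596 and NCU01926, with 3.87, 3.88 and 3.95. Just inside the level threshold was NCU07748 with 10.6 CPM, and just outside it were NCU05040 and NCU09210, with 8.91 and 9.91 CPM. Of the 76 genes, 36 had a gene symbol or a stated product and 40 had neither. All 76 had enough counts to enter the tests of S and A15.

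**Figure D1:**
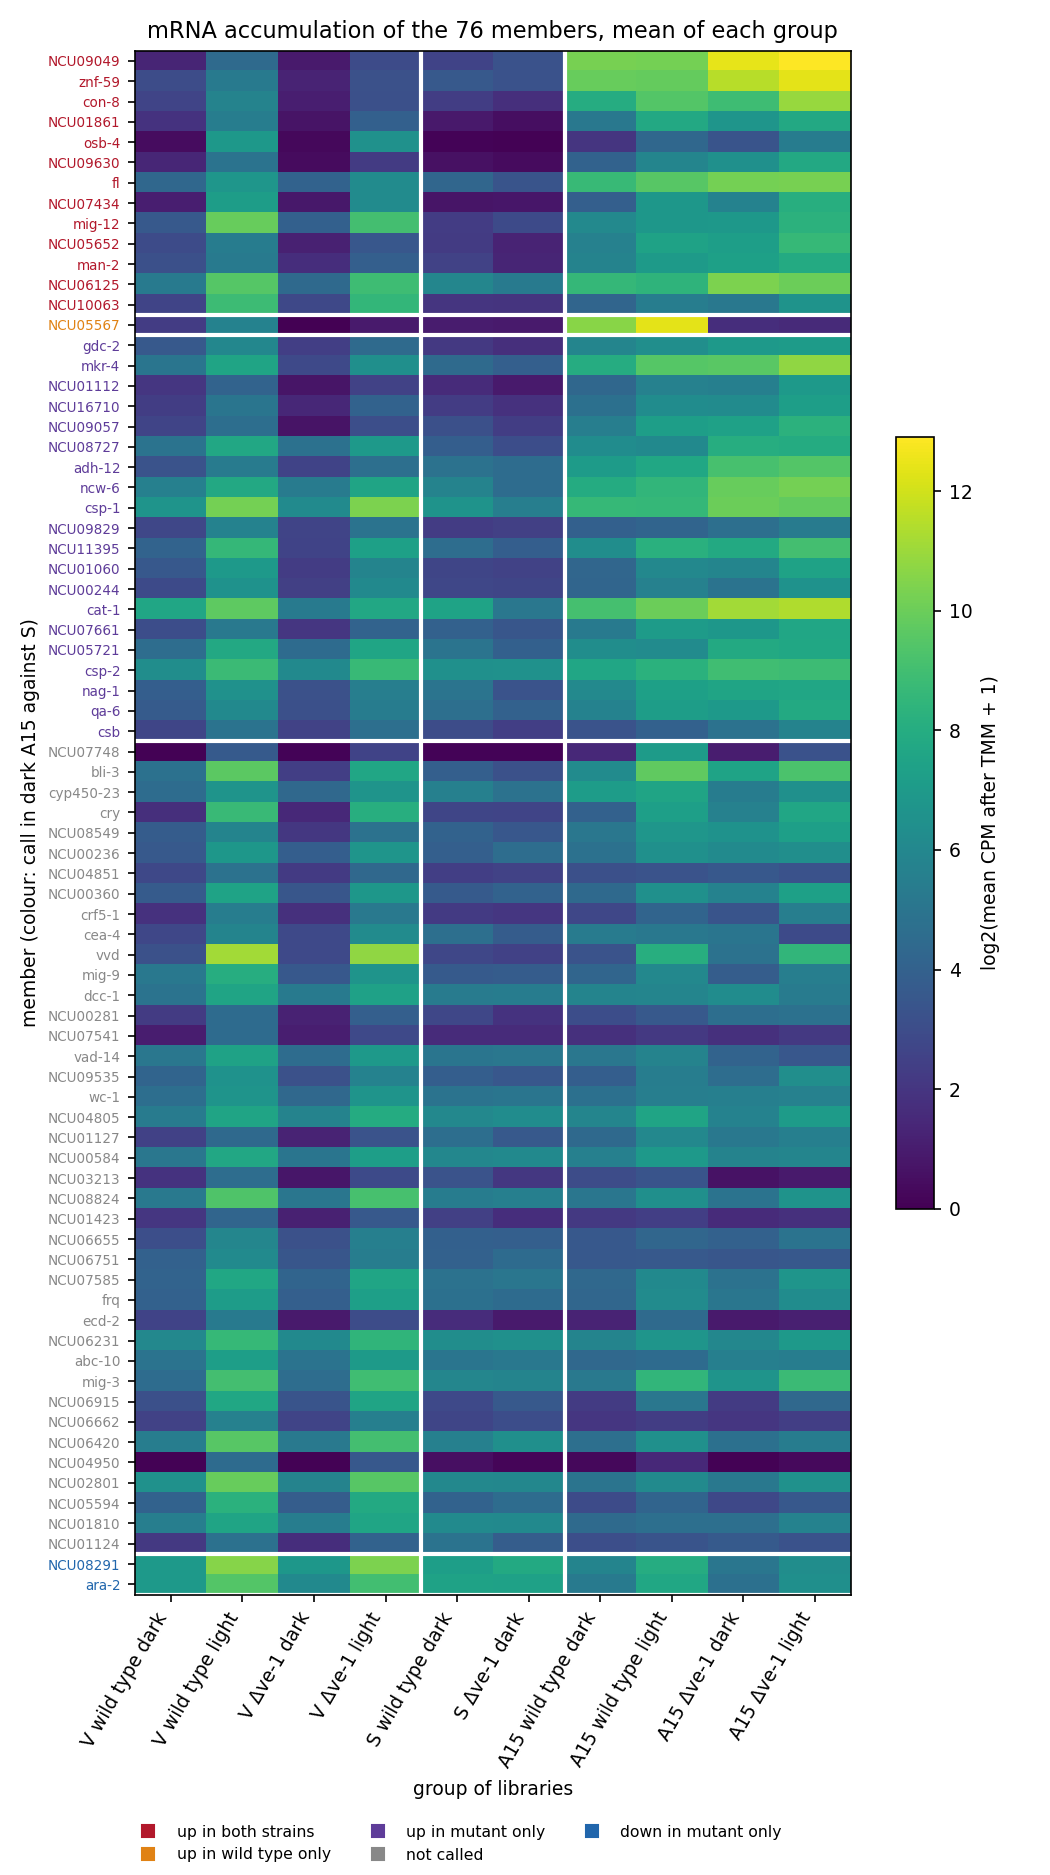
Mean mRNA level of each of the 76 light-induced genes (rows, grouped by call in dark A15 against S and sorted by log2FC in the wild type) in the 10 groups of libraries (columns), as colour on a scale of log2(mean CPM after TMM scaling + 1). Each gene is brighter in illuminated V than in dark V because it was chosen there, while dark A15 is brighter than S for the genes called up. The 40 genes that were not called had a median log2FC of −0.26 in the wild type (range −1.92 to 4.49) and 0.18 in the mutant (−2.48 to 4.40).

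Library totals ran from 14010994 to 21885041 counts. The 76 genes together took 0.161 to 0.164% of the counts in dark V of the wild type, 1.72 to 1.85% in illuminated V, 0.156 to 0.232% in S, 0.813 to 1.37% in dark A15 and 1.93 to 3.31% in illuminated A15. In the mutant they took 2.12 to 2.20% in dark A15 and 3.81 to 4.09% in illuminated A15. The deleted gene, *ve-1*, had 983 to 4302 counts in the wild-type libraries and 14 to 123 in the mutant libraries, except for replicate 1 of S in the mutant, which had 215. Replicate 1 of illuminated wild-type A15 also stood apart from replicate 2 for several genes named below. The 7 marker genes of conidiating tissue (*eas*, *con-6*, *con-8*, *con-10*, *con-13*, *acon-3* and *fl*, of which *con-8* and *fl* belong to the 76) summed to 62.2 to 198 CPM in S of the wild type, 55691 to 65355 CPM in dark A15 of the wild type and 151277 to 179070 CPM in dark A15 of the mutant, so the labelled tissue carried its markers. Nearly all of the sum in dark A15 was *eas*, with a mean of 58217 CPM in the wild type and 158275 CPM in the mutant. In illuminated V of the wild type the markers summed to 1020 to 1698 CPM. There the largest part was *con-6*, one of the light genes left out, with a mean of 983 CPM.

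Conidiation in the dark raised 14 of the 76 light-induced genes in the wild type and lowered none, at an absolute log2FC of at least 2 and an adjusted P below 0.001 (edgeR quasi-likelihood test, Benjamini-Hochberg over 8239 genes). That was 18.4% of the 76, where 5.58% of all genes tested were raised and 0.485% were lowered. In the mutant 33 genes rose, which was 43.4% of the 76, and 2 fell, where 9.27% of all genes rose and 2.49% fell. The 34 genes raised in at least 1 strain comprised 13 in both strains, 1 in the wild type alone and 20 that were called in the mutant alone. For the other 42 genes no rise was called, and 40 of them were called in neither direction. The median log2FC of the 76 was 1.03 in the wild type, with 2.44 in the mutant, beside 0.02 and 0.10 over all genes. With the adjusted P relaxed to 0.05, 23 genes rose and 1 fell in the wild type, where 11.2% of all genes rose and 2.91% fell, while in the mutant 38 rose and 2 fell, where 15.0% rose and 6.54% fell.

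With edgeR fitted to only the groups compared, 12 genes rose in the wild type, where 4.61% of all genes did, and 18 in the mutant, where 4.07% did, and none fell. The median log2FC was 0.71 to 1.16 in the wild type with a library left out, and 1.69 in the mutant without replicate 2 of dark A15. Without replicate 1 of S in the mutant, the mutant library with the most residual *ve-1* counts, 36 genes rose and 2 fell in the mutant. The share of all genes in that fit is not given, so these counts compare settings only.

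**Figure D2:**
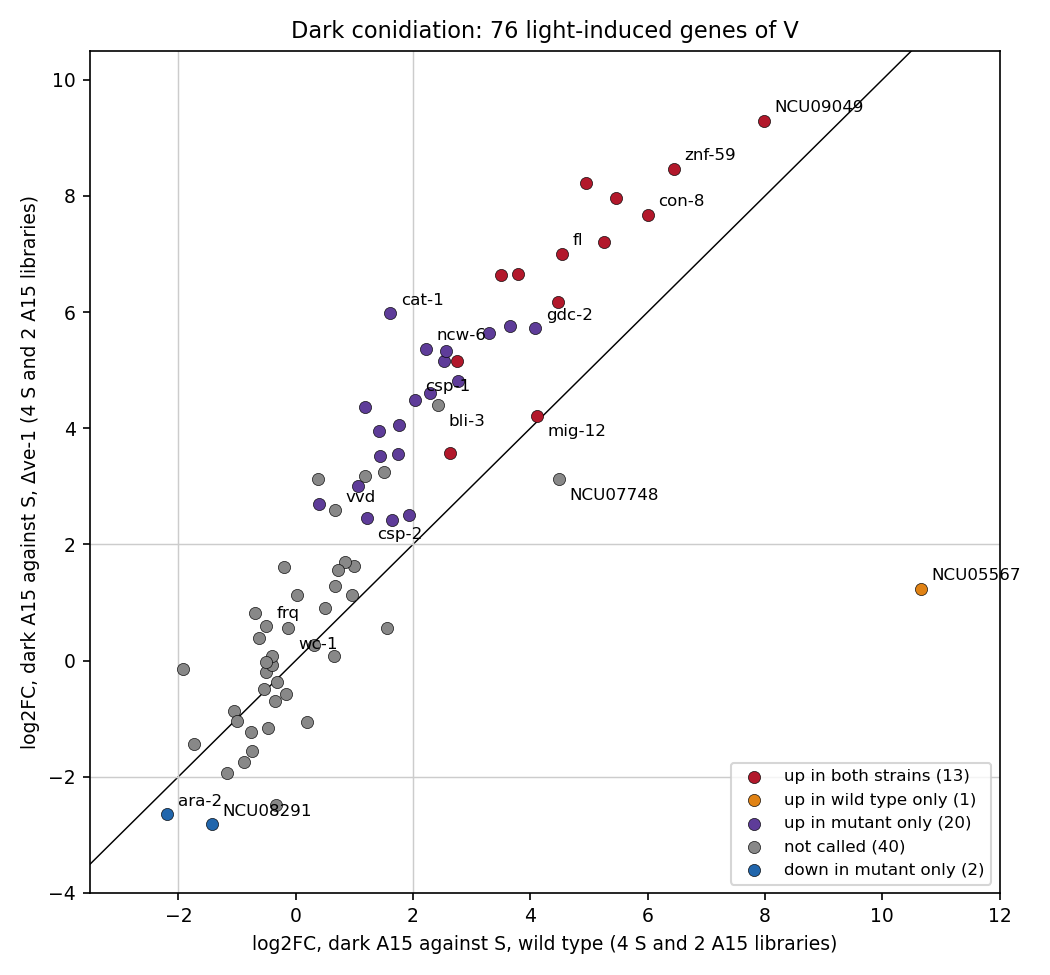
Change in mRNA level from S to dark A15 for each of the 76 light-induced genes (points), as log2FC in the wild type (x axis) and in the mutant (y axis), coloured by class of call. Grey lines mark an absolute log2FC of 2, and the black diagonal marks equal values in the strains. The 13 genes called in both strains lie at 2.63 to 7.98 in the wild type against 3.57 to 9.30 in the mutant, and NCU05567 is alone at 10.67 and 1.24.

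The 3 transcription factor genes of conidiation among the 76 rose in dark aerial tissue of the mutant, and *fl* also in that of the wild type. *fl* (NCU08726), on chromosome II from 3805777 to 3809265 of the NC12 assembly, had 9.24, 13.3, 26.4 and 24.8 CPM in the 4 S libraries of the wild type and 426 and 419 CPM in dark A15. In the mutant it had 15.8, 6.80, 7.39 and 6.35 CPM in S and 1098 and 1271 CPM in dark A15. The libraries of S and of A15 did not overlap in either strain, and the rise was 23.2-fold in the wild type (log2FC 4.54, SE 0.52, edgeR adjusted P = 1.6e-05) and 128-fold in the mutant (log2FC 7.01, SE 0.57, adjusted P = 4.4e-07). The light that chose the gene had taken it in V of the wild type from 18.5 and 19.1 CPM to 99.9 and 120 CPM, so dark aerial tissue held more *fl* mRNA than illuminated vegetative mycelia. These cultures also differed in form, age and, by the study's methods, temperature.

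CSP-1 and CSP-2 are transcription factors needed for conidia to separate from each other at the end of conidiation. *csp-1* (NCU02713) had 43.6, 55.7, 134 and 161 CPM in S of the wild type and 365 and 429 CPM in dark A15, a log2FC of 2.03 (SE 0.54) with an adjusted P of 0.012 that missed the threshold of edgeR calls. In the mutant it had 58.8, 41.7, 41.8 and 37.4 CPM in S and 663 and 1378 CPM in dark A15, a log2FC of 4.49 (SE 0.56, edgeR adjusted P = 2.3e-05). *csp-2* (NCU06095) had 79.5 to 108 CPM in S and 232 and 167 CPM in dark A15 of the wild type, with a log2FC of 1.21 (edgeR adjusted P = 0.018), and reached a log2FC of 2.45 (edgeR adjusted P = 7e-05) in the mutant. In the wild type both A15 libraries of each gene were above all 4 S libraries.

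NCU09049 and *znf-59* had the largest rises among the 13 genes called in both strains. The hypothetical gene NCU09049, on chromosome VII from 452381 to 454244, had 4.36, 7.26, 2.96 and 5.54 CPM in S and 1585 and 888 CPM in dark A15 of the wild type. In the mutant it had 2.38 to 18.6 CPM in S and 4573 and 6414 CPM in dark A15. The libraries of S and A15 did not overlap, and the log2FC was 7.98 in the wild type (SE 0.68, edgeR adjusted P = 1.7e-06) and 9.30 in the mutant. *znf-59* (NCU05143), on chromosome VI from 3586229 to 3588999, encodes a zinc finger protein. It had 6.76 to 15.2 CPM in S and 1293 and 644 CPM in dark A15 of the wild type, a log2FC of 6.45 (SE 0.58, edgeR adjusted P = 2.1e-06), and a log2FC of 8.47 in the mutant. Light in V had taken *znf-59* in the wild type only to 21.0 and 53.8 CPM.

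*con-8* (NCU09235), on chromosome I from 9463799 to 9465488, is a gene named for its expression in conidiating cultures. It had 1.32, 2.04, 1.6 and 11.2 CPM in S and 373 and 134 CPM in dark A15 of the wild type. The log2FC was 6.0 (SE 0.78, edgeR adjusted P = 4.9e-05) in the wild type, with 7.68 in the mutant. The other gene with a conidiation name, *ecd-2* (NCU08173, early conidial development), was not called, with a log2FC of −0.50 for the wild type and −0.03 for the mutant.

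Genes of metabolism, transport and the cell wall made up most of the remaining named genes raised in both strains. The putative short-chain dehydrogenases NCU01861 and NCU07434 rose with a log2FC of 5.46 and 4.47 in the wild type against 7.96 and 6.18 in the mutant. *osb-4* (NCU02190), for an oxysterol-binding protein, rose with a log2FC of 5.26 and 7.20, but on few counts: 4 counts over the 4 S libraries of the wild type against 131 in dark A15, a ratio of 42.4 (95% exact interval 16.2 to 158, counting error only), and 3 against 303 in the mutant, a ratio of 168 (56.9 to 819). The hypothetical gene NCU09630 had a log2FC of 4.95 and 8.23. These 4 genes, together with *fl*, *znf-59*, NCU09049 and NCU05567, kept their call in the wild type under all 15 alternative settings tried.

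Calls in the wild type were less secure for *mig-12* (NCU09830), an ABC multidrug transporter gene with a log2FC of 4.12 (adjusted P = 0.00066), *man-2* (NCU02322), for mannose-6-phosphate isomerase, which supplies mannose for glycans of the cell wall (3.5), and NCU10063, for a putative sugar isomerase (2.63). The edgeR call of *mig-12* was lost when any 1 of the 6 libraries was left out, with adjusted P up to 0.0072. That of *man-2* was lost without replicate 1 or 2 of dark A15 or replicate 1 or 2 of S, and that of NCU10063 without replicate 1 or 2 of dark A15 or replicate 3 or 4 of S. In the mutant the log2FC of these genes was 4.22, 6.64 and 3.57. The *mig-12* call there was lost without replicate 2 of dark A15 or replicate 3 of S. The unnamed gene NCU05652 (3.78 in the wild type) kept its call there in 8 of 15 settings, as did NCU10063, and lost it without replicate 1 of dark A15 or replicate 1, 2 or 3 of S. NCU06125 (2.75) kept it in 13 and lost it without replicate 1 of dark A15.

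Among the 20 genes called in the mutant alone, *cat-1*, for a catalase that accumulates in conidia, had the largest log2FC. Its mRNA was at 84.5, 55.3, 149 and 430 CPM in S and 623 and 459 CPM in dark A15 of the wild type. In the mutant it was at 63.0, 28.1, 33.1 and 12 CPM in S and 1803 and 2595 CPM in dark A15. In both strains dark A15 lay above all S libraries, but the log2FC of 1.61 in the wild type (edgeR adjusted P = 0.093) did not pass the test, while that of 5.99 in the mutant (SE 0.75, edgeR adjusted P = 2.4e-05) did. Replicate 4 of wild-type S, at 430 CPM, stood close to dark A15.

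The hypothetical gene *mkr-4* (NCU06597) had a log2FC of 3.66 (edgeR adjusted P = 0.0044) in the wild type, with 5.77 in the mutant. *gdc-2* (NCU06803), for glutamate decarboxylase, had 4.08 (edgeR adjusted P = 0.0025) and 5.72, and its call in the mutant was lost without replicate 1 of dark A15. NCU01112, for a putative lipid-binding protein, had 3.29 and 5.64. Genes of the cell wall were in this class too. *ncw-6* (NCU00586), for a secreted non-anchored cell wall protein, had a log2FC of 2.23 (edgeR adjusted P = 0.019) and 5.37, and *nag-1* (NCU10852), for an enzyme that acts on chitin, had 1.19 and 4.36. *adh-12* (NCU04823), for an alcohol dehydrogenase, had 2.29 and 4.61, *csb* (NCU07837) had 0.40 and 2.70, and *qa-6* (NCU00838), of quinate metabolism, had 1.06 and 3.01. The mutant call of *qa-6* was lost without replicate 1 or 2 of dark A15 or replicate 2 or 3 of S, and that of *csb* without replicate 1 of dark A15.

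The class called in the mutant alone did not lie at 0 in the wild type. Its 20 genes had a log2FC of 0.40 to 4.08 there, with a median of 1.85, against 2.43 to 5.99 with a median of 4.42 in the mutant. The 13 genes called in both strains had medians of 4.54 and 7.01, and the 40 genes called in neither had −0.26 and 0.18. A call in 1 strain is not a difference between strains, so the difference was tested as the interaction of strain and development. At an adjusted P below 0.001 edgeR called none of the 76 genes, and at 0.05 it called NCU05567 alone. Without adjustment 25 genes had a P below 0.05 in the direction of a higher log2FC in the mutant, where 7.26% of all genes did, and 2 in the other direction, where 5.45% did.

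NCU05567, a hypothetical gene on chromosome VI from 1487479 to 1488756, was the gene called in that test. In S its mRNA was barely present in either strain, at 0.66, 0.211, 1.44 and 1.69 CPM (wild type) and 0.723, 0.619, 1.51 and 0.856 CPM (mutant). In dark A15 it reached 1326 and 1866 CPM in the wild type against 2.66 and 1.72 CPM in the mutant. The log2FC was 10.67 (SE 1.02, edgeR adjusted P = 3.1e-06) in the wild type, with 1.24 (SE 0.87, adjusted P = 0.27) in the mutant. The gap between the strains, −9.43 on the log2 scale (SE 1.44), had an edgeR adjusted P of 0.046, in a test that called 0.0243% of all genes as lower in the mutant. That call was lost in 11 of 12 fits that left out 1 library, with adjusted P of 0.022 to 0.14.

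The same gene was low in V of the mutant, where both dark libraries had 0 counts and the illuminated ones 8 and 23, or 0.461 and 1.29 CPM. In V of the wild type it had 3.32 and 4.36 CPM in the dark and 37.2 and 65.2 CPM in the light. It thus met the ratio threshold in the mutant at a level of about 1 CPM, since the level threshold applied to the wild type alone.

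**Figure D3:**
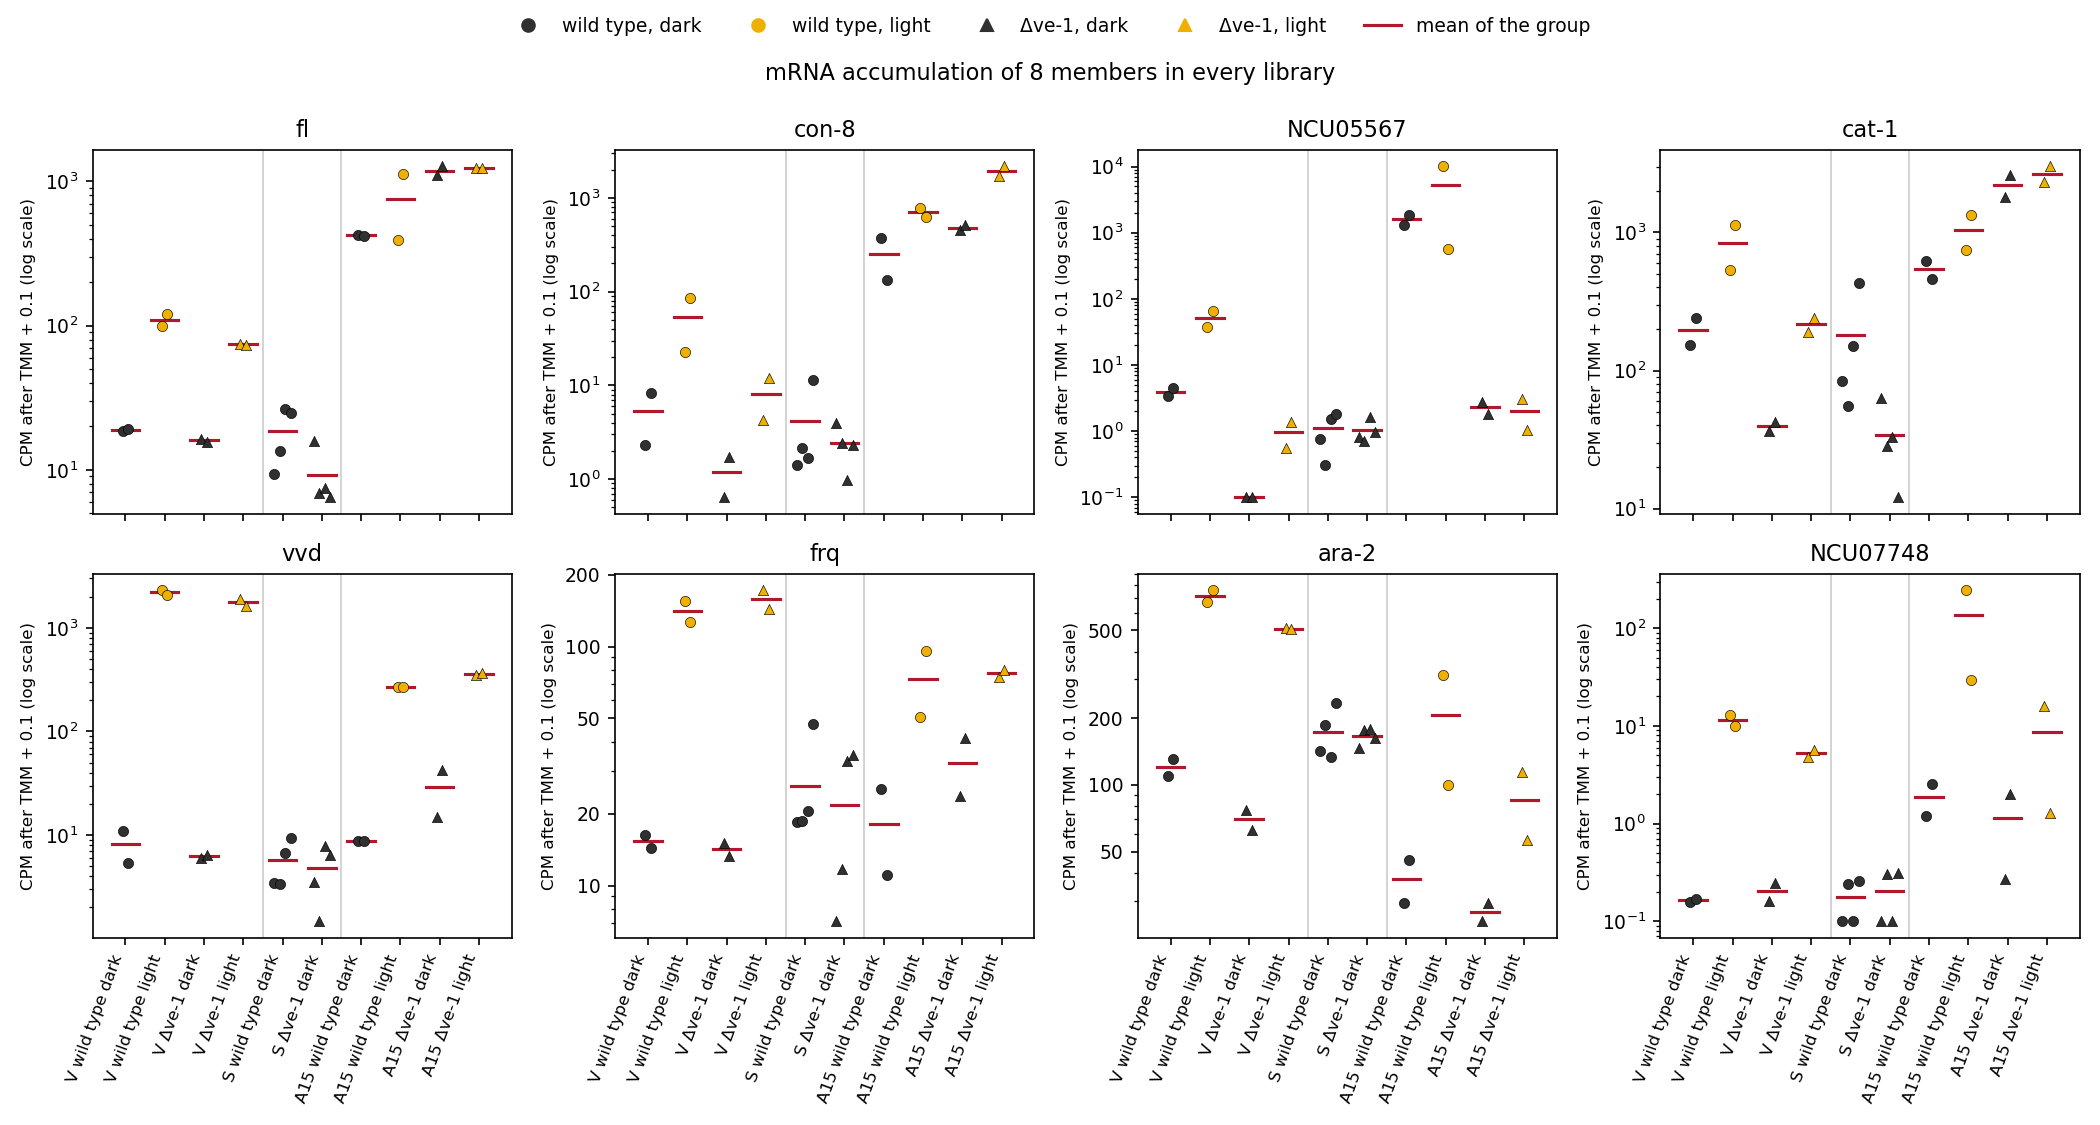
mRNA level in each library (points; y axis, CPM plus 0.1 on a log scale) for 8 of the light-induced genes in the 10 groups of libraries (x axis). *fl*, *con-8*, *cat-1* and, in the wild type, NCU05567 rise from S to dark A15, in the wild type *vvd* and *frq* have dark A15 values that overlap S, *ara-2* falls, and NCU07748 and NCU05567 differ between the replicates of illuminated wild-type A15 (245 and 29.6 CPM, and 10084 and 565 CPM).

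None of the 5 genes of light perception, light signalling and the clock was called in dark conidiation of either strain, although in the mutant *vvd* and *cry* passed at an adjusted P below 0.05 and were called in 5 and 3 of 15 alternative settings. *vvd* (NCU03967), on chromosome VI from 2268533 to 2271812, had 3.37, 3.24, 6.61 and 9.24 CPM in S and 8.74 and 8.73 CPM in dark A15 of the wild type, a log2FC of 0.66 (edgeR adjusted P = 0.42). The 2 dark A15 libraries lay within the range of S. In illuminated V the gene had stood at 2309 and 2087 CPM. In the mutant its log2FC was 2.59 (edgeR adjusted P = 0.0019), with 1.37 to 7.71 CPM in S and 14.7 and 42.7 CPM in dark A15.

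*frq* (NCU02265), the central clock gene, had 18.3, 18.5, 20.4 and 47.2 CPM in S and 25.2 and 10.9 CPM in dark A15 of the wild type, a log2FC of −0.50 (edgeR adjusted P = 0.59), and 0.59 in the mutant. *wc-1*, the photoreceptor gene, had a log2FC of −0.13, one of the 6 smallest changes in the wild type. *cry* (NCU00582), for a cryptochrome, had 1.51 (edgeR adjusted P = 0.25) and 3.25 (0.011), and *dcc-1* (NCU00939), for a putative histidine kinase in the control of development and carotenogenesis, had 0.50 and 0.91. *bli-3* (NCU07267), isolated as a blue-light-induced gene, had 2.42 (0.079) and 4.40 (0.003) and was not called either, although without replicate 1 of S its log2FC in the mutant was 6.91 and passed the test (edgeR adjusted P = 4.1e-06). A missed threshold does not show that their levels were equal in S and A15.

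With at least 10 CPM required in S or dark A15, the smallest wild-type changes were those of NCU09535 (log2FC 0.03), *wc-1* (−0.13), NCU04805 (−0.16), the transcription factor gene *vad-14* (NCU09615, 0.20), NCU01127 (−0.21) and NCU00584 (−0.31). Several enzyme and transporter genes were also uncalled in both strains. The wild-type log2FC was −0.62 for *abc-10* (NCU01997, an ABC transporter), 0.64 for *mig-9* (NCU09141, a putative pyridoxal reductase), 0.67 for *cea-4* (NCU00761, a putative lipase), 1.55 for *cyp450-23* (NCU09115, a cytochrome P450) and −0.33 for NCU03213, a putative mannosylphosphorylation protein whose log2FC in the mutant was −2.48. *mig-3* (NCU04452) had −0.69 and *crf5-1* (NCU06306) 0.72. NCU07748 had a log2FC of 4.49 in the wild type that did not pass (edgeR adjusted P = 0.025), on 4 counts in S and 73 in dark A15, a ratio of 23.6 (95% exact interval 8.83 to 88.9, counting error only). Of the 40 uncalled genes 25 had no name or product, beside 4 of the 13 raised in both strains and 9 of the 20 called in the mutant alone.

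Of the light-induced genes, 2 fell in dark aerial tissue of the mutant. *ara-2* (NCU09534), for a putative peroxiredoxin, a class of enzymes that remove peroxides, had 142, 186, 134 and 234 CPM in S and 29.3 and 45.7 CPM in dark A15 of the wild type, with 24.1 and 29.2 CPM in dark A15 of the mutant. S and A15 did not overlap in the wild type, yet the log2FC of −2.19 (SE 0.46, edgeR adjusted P = 0.0031) missed the threshold there, and that of −2.65 (SE 0.48, edgeR adjusted P = 0.0005) passed it in the mutant. The hypothetical gene NCU08291 had −1.42 (edgeR adjusted P = 0.042) and −2.82 (edgeR adjusted P = 0.00068). Both calls were close to the threshold. That of *ara-2* was lost without replicate 1 or 2 of dark A15 or replicate 2 or 3 of S in the mutant, and that of NCU08291 without replicate 1 or 2 of dark A15 or replicate 3 or 4 of S.

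Lists of genes of known function, chosen with earlier results of these data known, placed these calls beside other light and conidiation genes. Of 9 genes of light signalling and the clock (*wc-1*, *wc-2*, *vvd*, *frq*, *frh*, *cry*, *phy-1*, *phy-2* and *nop-1*), of which 4 belong to the 76, only the opsin gene *nop-1* was called up at an adjusted P below 0.001, in both strains, and none fell. At 0.05 *vvd*, *cry* and *phy-2* (log2FC 2.26, edgeR adjusted P = 0.024) rose in the mutant as well. Of 8 light-responsive regulators 3 rose in the wild type against 4 in the mutant. Of 8 conidiation regulators 2 rose in the wild type against 6 in the mutant. The 10 well-known light genes that were left out rose in 7 of 10 cases in the wild type against 9 of 10 in the mutant, with a median log2FC of 4.84 and 6.25. All 7 markers of conidiating tissue rose in both strains, and of 4 markers of sexual tissue (*poi-2*, *asd-1*, *asd-3* and *asd-4*) 1 rose in the wild type, *asd-3*, and 2 in the mutant.

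The level that dark conidiation gave could be set beside the level that light gave in V, as a description. The mean in dark A15 was above that in illuminated V for 14 of the 76 genes in the wild type against 30 in the mutant. Both libraries of dark A15 lay above both of illuminated V for 7 genes in the wild type: *con-8*, *fl*, *adh-12*, *znf-59*, NCU05567, NCU09049 and NCU09057. They did so for 26 genes in the mutant. For 52 and 43 genes they lay below, and for 17 and 7 the libraries overlapped. No share of all genes was taken, so these counts have no baseline. The genes were chosen by their levels in illuminated V, where the floor of 10 CPM applied to the wild type alone. That choice bears on the counts and on the gap between the strains. V and A15 also differed in culture form and age and, by the study's methods, in temperature. Over the 76 genes the median level in the wild type was 11.3 CPM in dark V, 106.6 CPM in illuminated V, 14.0 CPM in S, 29.0 CPM in dark A15 and 84.2 CPM in illuminated A15.

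The classes of response to development had unlike medians in V, given here with no test. In the wild type the median ratio of light to dark was 14.9 for the 13 genes raised in both strains, 5.66 for the 20 called in the mutant alone and 7.86 for the 40 uncalled genes, and in the mutant it was 7.91, 5.62 and 7.83. The 13 genes had a median of 5.34 CPM in dark V of the wild type, the 20 had 11.7 CPM and the 40 had 13.8 CPM. Replicate 2 of illuminated wild-type V was above replicate 1 for 12 of the 13 genes, by a median of 1.99-fold, and for 18 of the 20, by 1.45-fold. It was above for 20 of the 40 uncalled genes (median 1.02-fold) and for 4191 of all 8239 genes tested (1.01-fold). In dark A15 of the wild type replicate 2 was above replicate 1 for 0 of the 13 genes (median 0.618-fold) and 2 of the 20 (0.588-fold). It was above for 15 of the 40 uncalled genes (0.894-fold) and for 4162 of all 8239 genes (1.01-fold). In dark A15 of the mutant replicate 2 was above replicate 1 for 10 of the 13 (1.37-fold) and 11 of the 20 (1.01-fold). It was above for 21 of the 40 (1.07-fold) and for 3819 of all 8239 genes (0.943-fold). Of the 7 markers of conidiating tissue, the mean in V of the wild type went with light from 2.14 to 983 CPM for *con-6*, from 0.978 to 206 CPM for *con-10*, from 5.19 to 54.0 CPM for *con-8* and from 18.8 to 110 CPM for *fl*, all of which met the thresholds for light-induced genes. It was 5.70 and 5.91 CPM for *acon-3*, 0.486 and 0.424 CPM for the hydrophobin gene *eas* and 0 and 0.0331 CPM for *con-13*, beside 157, 58217 and 269 CPM in dark A15. Their part in these medians was not tested.

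Illumination of aerial tissue tested the same genes for light in a second tissue. The comparison shared the dark A15 libraries with that of development, so the values are given side by side only. At an adjusted P below 0.001 or below 0.05, edgeR called none of the 76 genes and none of the 8193 genes tested in either strain. Without adjustment, 43 of the 76 had a P below 0.05 in the wild type, all higher in the light, where 5.0% of all genes were higher. In the mutant 34 were higher and 1 lower, where 4.56% and 7.69% of all genes were. DESeq2 on the same libraries called 9 of the 76 as higher in the wild type, where it called 0.323% of all genes, and 5 in the mutant, where it called 0.167%. The median log2FC of the 76 was 1.36 in the wild type, with 0.87 in the mutant, beside 0.04 and −0.03 over all genes.

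Both illuminated libraries were above both dark ones for 51 (wild type) and 50 (mutant) of the 76 genes, where 22.3% and 23.8% of all genes were, and 42 of the 76 were above in both strains. Both illuminated libraries were below both dark ones for none of the 76 genes in the wild type against 4 in the mutant. No share of all genes was taken for the 42, or for any count of genes below the dark libraries, so these have no baseline. With replicate 1 of illuminated wild-type A15 left out, replicate 2 alone was above both dark libraries for 60 of the 76 genes, where 37.6% of all genes were, and below both for 4. The edgeR count of calls for light stayed at 0 without replicate 1.

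**Figure D4:**
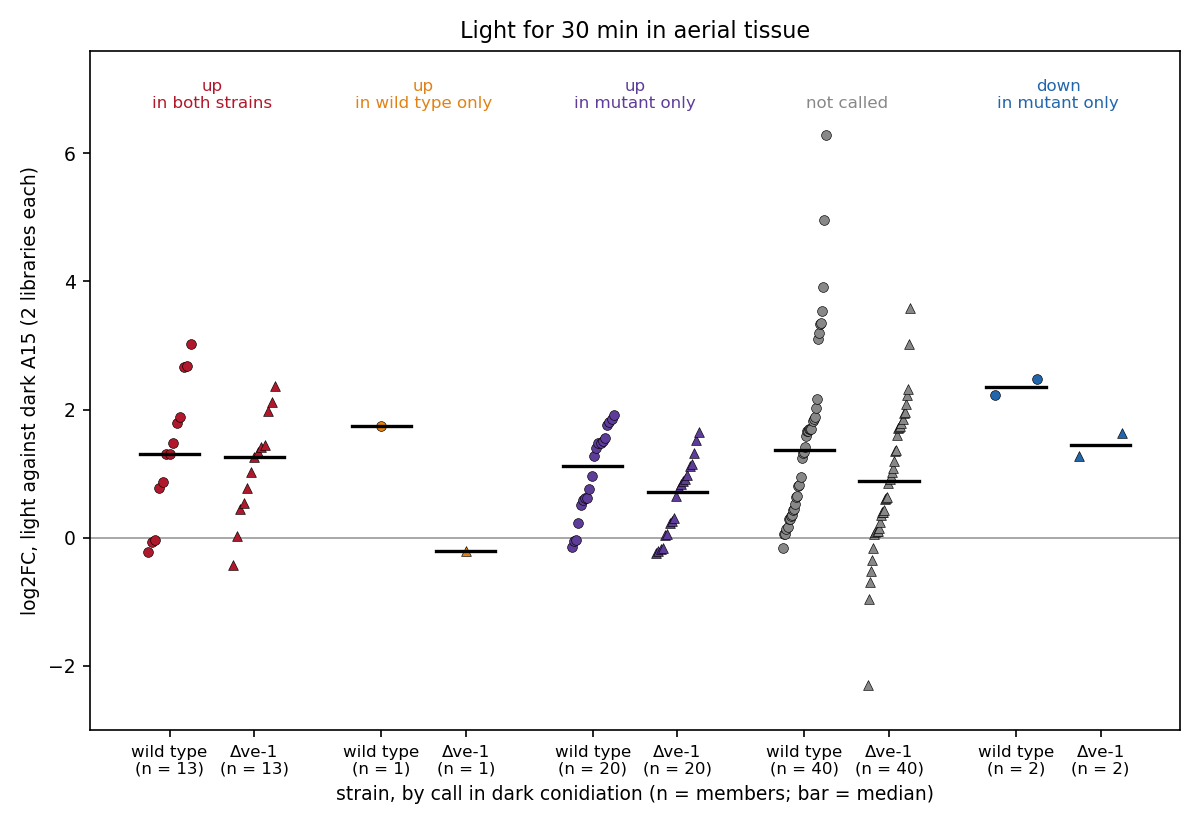
Change in mRNA level from dark to illuminated A15 (y axis, log2FC) for each of the 76 light-induced genes (points) by class of response to dark conidiation and strain (x axis), with bars at the class medians. In the wild type the medians are 1.31 for genes raised in both strains, 1.12 for genes called in the mutant alone and 1.37 for uncalled genes, and 69 of the 76 points lie above 0.

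Genes with both illuminated libraries above both dark ones were found in each class of response to development except that of NCU05567 alone. In the wild type both illuminated libraries were higher for 9 of the 13 genes raised in both strains, 12 of the 20 called in the mutant alone, both lowered genes and 28 of the 40 uncalled genes. In the mutant this held for 11, 13, 2 and 24. The class medians in the wild type were 1.31, 1.12, 2.35 and 1.37, and those in the mutant were 1.27, 0.71, 1.45 and 0.88.

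The lowest adjusted P for light in aerial tissue belonged to *vvd* in both strains, shared in the wild type with *mig-3*. *vvd* had 8.74 and 8.73 CPM in dark and 270 and 271 CPM in illuminated A15 of the wild type, a log2FC of 4.96 (SE 0.55, edgeR adjusted P = 0.061). In the mutant it had 14.7 and 42.7 CPM in the dark and 350 and 364 CPM in the light, a log2FC of 3.59 (edgeR adjusted P = 0.13). The illuminated level was below the 2309 and 2087 CPM of V. *mig-3* had a log2FC of 3.34, *bli-3* of 3.54, NCU07434 of 3.02 and NCU01861 of 2.68 in the wild type, with edgeR adjusted P of 0.061 to 0.081. *ara-2* had 314 and 100 CPM in the light against 29.3 and 45.7 CPM in the dark (log2FC 2.48, edgeR adjusted P = 0.19), and *frq* had 50.7 and 95.3 CPM against 25.2 and 10.9 CPM (log2FC 2.02, edgeR adjusted P = 0.21).

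Among the genes that development raised, *con-8* had higher values with light and *fl* had overlapping ones. *con-8* had 788 and 619 CPM in illuminated A15 of the wild type, above the 373 and 134 CPM of the dark libraries, and 1717 and 2173 CPM against 451 and 509 CPM in the mutant. *fl* had 392 and 1126 CPM in the light against 426 and 419 CPM in the dark in the wild type, which overlapped, and 1238 and 1240 CPM against 1098 and 1271 CPM in the mutant. *csp-1* overlapped as well, with 169 and 598 CPM against 365 and 429 CPM in the wild type.

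The replicates of illuminated wild-type A15 differed widely for some single genes, and *eas* took 4.07% of the counts in replicate 1 and 11.3% in replicate 2. NCU05567 had 10084 CPM in replicate 1 and 565 CPM in replicate 2, NCU07748 had 245 and 29.6 CPM, and *ecd-2* had 41.2 and 1.61 CPM. For NCU05567, replicate 1 lay above both dark libraries (1326 and 1866 CPM) and replicate 2 below both.

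Between the strains, the median ratio of mutant to wild type over the 76 genes was 0.868 in S, 1.92 in dark A15, with 59 genes higher in the mutant, and 1.48 in illuminated A15, with 50 higher. In V, where the genes were chosen and the floor of 10 CPM applied to the illuminated wild type alone, which favours genes that are higher there, it was 0.721 in the dark and 0.638 in the light, while the median over all genes stayed between −0.01 and 0.08 on the log2 scale. The summed level of the markers of conidiating tissue, nearly all of it *eas*, was also higher in dark A15 of the mutant, as given above. Its part in these ratios was not tested.

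At an adjusted P below 0.001 edgeR called none of the 76 for a difference between the strains in S, dark A15 or illuminated A15. At an unadjusted P below 0.05, in S 12 of the 76 were lower and 0 higher, where 8.76% and 8.19% of all genes were. In dark A15 37 were higher and 4 lower, where 10.3% and 8.74% were, and in illuminated A15 26 were higher and 11 lower, where 9.62% and 11.7% were. At an adjusted P below 0.05, 2 genes were higher in dark A15 of the mutant, where 0.561% of all genes were, and 1 was lower, where 1.78% were. NCU09630 was 5.59-fold higher (log2FC 2.48, SE 0.38, edgeR adjusted P = 0.028), *adh-12* was higher with a log2FC of 2.07 (edgeR adjusted P = 0.047), and NCU05567 was lower with a log2FC of −9.51 (SE 1.49, edgeR adjusted P = 0.028).

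In illuminated A15, 2 of the 76 were higher in the mutant at the same threshold, beside 1.0% of all genes, and 3 were lower, beside 2.58%. NCU09049 was higher with a log2FC of 2.62 (edgeR adjusted P = 0.036) and *znf-59* with 2.46 (0.044), while NCU05567 was lower with −11.46 (SE 1.6, edgeR adjusted P = 0.021), NCU04950 with −2.82 (0.034) and *vad-14* with −2.41 (0.021). Every one of these calls in A15 was lost when some single library was left out. In dark A15, NCU09630 lost its call without either wild-type library, and *adh-12* and NCU05567 did so without either wild-type library or replicate 2 of the mutant, with edgeR adjusted P up to 0.41. In illuminated A15, NCU05567 lost its call without either mutant library, NCU04950 and *vad-14* without either mutant library or replicate 1 of the wild type, and NCU09049 and *znf-59* without any 1 of the 4 libraries, with edgeR adjusted P up to 0.34.

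The 76 genes lay on all 7 chromosomes, with 16 on I, 7 on II, 12 on III, 10 on IV, 13 on V, 7 on VI and 11 on VII, and spanned a median of 1874 bases, beside 2126.5 for all genes. A few were neighbours. *fl* and NCU08727 lay 478 bases apart on chromosome II in the same direction, and had a log2FC of 4.54 and 2.52 in the wild type, with 7.01 and 5.16 in the mutant. All but the 2.52 of NCU08727 passed the test. NCU08549 and NCU16710, divergent and 721 bases apart on chromosome III, had 1.18 and 2.77 (wild type) and 3.18 and 4.81 (mutant), and of these values only the 4.81 of NCU16710 passed the test. *mig-12* and NCU09829, divergent with 3482 bases between them on chromosome V, had 4.12 and 1.93 (wild type) and 4.22 and 2.51 (mutant), and all passed the test but the 1.93, which had an edgeR adjusted P of 0.00038 and missed the fold threshold.

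Other adjacent genes had unlike values in development. *ara-2* and NCU09535 diverged from a stretch of 867 bases on chromosome V, with a log2FC of −2.19 and 0.03 in the wild type against −2.65 and 1.13 in the mutant. NCU00584 diverged from *al-2*, a left-out carotenoid gene, with a gap of 11 bases on chromosome I, and *ncw-6* lay on the other side of *al-2*. In the mutant *ncw-6* had a log2FC of 5.37, *al-2* 2.52 and NCU00584 −0.38. Of the 76 genes 16 overlapped a gene on the opposite strand, among them *bli-3*, *cry*, *gdc-2*, *ara-2*, *qa-6* and NCU09630, and the reads were counted for the strand of each gene.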

How the data were processed

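The data are poly(A) RNA-seq libraries of *N. crassa* sequenced as single-end reads of 100 nt. The study's methods state read checks with FastQC, mapping with TopHat 2.11 to the OR74A genome (NC12) and counting in SeqMonk over exons of merged transcripts with opposing-strand specificity. The authors deposited the values as raw counts per gene, without normalization, and these were used as deposited.

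The light-induced genes were found from CPM by column total, averaged over the libraries of a group. The genes and lists were chosen with earlier results of these data known. The gene symbols came from the reference table and, for a few, from the study's annotation. Genes named in the text were the largest changes among called genes, the smallest changes of the wild type and all genes with a symbol or stated product, apart from the markers of conidiating tissue, *nop-1*, *phy-2*, *asd-3*, NCU05652, NCU06125 and the genes next to a threshold or a neighbour, and the genes whose replicates differed in illuminated A15, which were named after their values were seen.

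Tests used edgeR 4.0.16 in R 4.3.3 (TMM, filterByExpr with a minimum count of 10, quasi-likelihood F test, Benjamini-Hochberg over all genes tested). Development was tested over the 16 libraries of S and A15, and light and strain within A15 over its 8 libraries, with strain in S in the former. A call needed an absolute log2FC of 2 and an adjusted P below 0.001, the thresholds of the study, which used DESeq2. SE is the absolute log2FC divided by the square root of F. Levels in the text are CPM after TMM scaling over all 24 libraries. The fits were tested on simulated counts with known changes. Alternatives were RLE or library size scaling, no filter, DESeq2 1.42.0, other sets of libraries, a replicate block, each library left out and an adjusted P below 0.05. Columns of libraries that matched no sample numbered 0. Promoter sequence was not analysed here.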

Additional observations from a re-analysis of the deposited data

Results flagged for a closer look

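In S, with 4 libraries per strain, 96 sets of levels were tested for a library far from the other 3 by Dixon's rule, and 8 met it, where chance gives about 1 in 20. In the mutant, replicate 1, the library with 215 counts of *ve-1*, was high for *fl* (15.8 CPM, others 6.35 to 7.39), *mkr-4* (41.1 CPM, others 4.21 to 6.19), NCU00584 (97.9 CPM, others 57.7 to 62.8) and NCU04950 (0.562 CPM, others 0). In the wild type, replicate 4 was high for *frq* (47.2 CPM, others 18.3 to 20.4) and NCU01112 (4.26 CPM, others 1.19 to 1.44), and replicate 3 for NCU04805 (114.5 CPM, others 44.4 to 51.5) and *csp-2* (108 CPM, others 79.5 to 83.3). Their part in the results was not tested beyond the fits without these libraries.

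The response of NCU05567 to dark conidiation differed between the strains, by −9.43 on the log2 scale (edgeR interaction, adjusted P = 0.046).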

How the results depend on the processing

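No result reversed. In dark conidiation of the wild type 14 genes were called, and 24 with DESeq2 on only the groups compared or with an adjusted P below 0.05, and 9 to 13 when any 1 library was left out. The median log2FC was 1.48 with library size scaling alone, which moved the median of all genes to 0.44, and 0.71 to 1.16 with a library left out. In the mutant 35 were called, 18 with edgeR on only the groups compared and 27 to 38 with a library left out, and the median was 1.69 to 2.48. For the interaction of strain and development 0 were called, against 4 with DESeq2, 1 with edgeR and 3 with DESeq2 on only the groups compared, and 1 at 0.05. For light 0 were called, against 9 and 5 (wild type and mutant) with DESeq2, 11 and 3 with DESeq2 on only the groups compared, and 1 in the wild type over all 24 libraries. For strain in dark and illuminated A15 0 were called, against 4 and 5 with DESeq2, 3 and 5 on only the groups compared, 1 and 1 over all 24 libraries, and 3 and 5 at 0.05. With a library left out all these counts stayed at 0. These counts compare settings only and stand here without shares of all genes, and the cause of their differences was not tested. With 1 CPM added to the ratio the rule found 66 genes, of which 10 and 28 rose, and with CPM after TMM 79, of which 15 and 34 rose.

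Whether replicate numbers pair the samples was not settled: same-numbered S libraries of the strains had correlations of −0.39, 0.36, 0.65 and −0.24. A replicate block by title numbers left 11 (wild type) and 31 (mutant) genes raised, and 0 for light, and by library code 11 and 30 genes raised. These counts too compare settings only and stand without shares of all genes. Dark and illuminated wild-type A15 had a correlation of −0.23, and a block with exchanged numbers, chosen after seeing the data, gave 0 calls for light. A block by library code was not run for light in A15, where the codes are not shared.

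With 2 libraries per A15 group, large changes could also go uncalled, as for *vvd* in light (log2FC 4.96, edgeR adjusted P = 0.061), and the 0 calls for light or strain set no limit on the changes.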
